A study of Arabidopsis thaliana with 9 samples.

Results

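Arabidopsis thaliana seedlings of the mutant cyp71-3 were compared with seedlings of Col-0, the wild-type accession, by mRNA sequencing. The comparison covered the 3 libraries labelled cyp71-3, the 3 labelled Col-0, and all genes with a mean of at least 1 FPKM (fragments per kilobase of transcript scaled to the mapped fragments of the library) over these 6 libraries, which were 19089 of the 32823 genes in the files. Seedlings of both genotypes were 2 weeks old, were grown under 16 h of light and 8 h of darkness, and carried no treatment named in the labels. The labels name seedlings and no organ, so each value averages over the organs collected. The study also sequenced the mutant se-1, whose 3 libraries entered only the estimate of the spread between libraries. Its design text asks how loss of CYP71 acts on microRNAs and their targets. The labels give the mutation by its allele name, and the kind of lesion is not stated in them.

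CYP71 encodes a nuclear cyclophilin, a peptidyl-prolyl isomerase that also carries WD40 repeats, the blade-like domains through which many chromatin proteins bind histones. It has been described as a partner of histone H3, of the chromatin assembly factor CAF-1 and of the Polycomb-associated protein LHP1. CAF-1 places new histones on DNA behind the replication fork and LHP1 helps keep genes silent, and plants without CYP71 have been reported with defects in meristems and in the formation of leaves and other organs.

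The deposited FPKM values summed to between 825338 and 937136 per library. The lowest steps between values implied that 1 FPKM of a 1 kb transcript stands for about 11.2 to 15.0 counted fragments, depending on the library. Profiles of log2(FPKM + 1) correlated at r of 0.981 to 0.989 across genes within a genotype and at 0.934 to 0.946 between them. The share of summed FPKM from chloroplast-encoded genes was 3.44% for the first cyp71-3 replicate, 1.96% for the second Col-0 replicate and under 0.05% in the other 4 libraries compared. Marker genes of both leaf and root were present in these seedling libraries. The summed FPKM of 6 leaf markers was 41245 to 42537 in Col-0 and 35872 to 36782 in cyp71-3, and that of 9 root markers was 102.7 to 110.8 and 111.4 to 119.2. The root sum hid opposite moves. IRT1 was at 11.4 to 13.6 FPKM in Col-0 against 37.3 to 38.65 in cyp71-3, and TIP2;3 at 39.5 to 43.5 against 9.50 to 12.1. Of the 8 root markers tested below, 6 were called higher and 2 lower. Pollen markers were at or near 0 in every library, and 7 flower markers together gave 3.57 to 5.29 FPKM in Col-0 and 5.10 to 6.18 in cyp71-3. Seed markers, 8 in number, gave 0.79 to 1.22 FPKM in Col-0 and 7.78 to 8.11 in cyp71-3. Only 1 of them, EM6, reached a mean of 1 FPKM, with 0.30 to 0.76 in Col-0 and 3.27 to 4.29 in cyp71-3. The seed markers SESA1 and SESA4 stayed at or near 0. Markers of guard cells and their lineage, 7 in number, gave 77.8 to 79.1 and 60.5 to 63.0. Most of that fall came from FAMA, at 19.6 to 21.4 FPKM in Col-0 and 10.1 to 11.4 in cyp71-3, and from SCRM2. By the test used below, 4 of the 7 were lower and 2, SPCH and EPF2, were higher. Values below are FPKM, fold changes are cyp71-3 minus Col-0 on the log2(FPKM + 1) scale with their standard error, and this scale shrinks the change of genes near 0. Nothing in the labels ties the libraries to separately grown plants. The p-values therefore reflect only how far these samples scatter, which may be technical.

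CYP71 itself (AT3G44600, chromosome 3) was read first, as a check of the labels. Its levels were 16.9, 17.57 and 19.1 FPKM in the 3 Col-0 libraries and 3.70, 4.41 and 4.16 in the 3 cyp71-3 libraries. No cyp71-3 library came near the Col-0 range, and the remaining signal came from fragments that were still counted at the locus in the mutant. The change was -1.89 ± 0.07 on the log2 scale (limma adjusted p = 1.25e-09). Of 13 tested members of a list of cyclophilins, which assist protein folding, 8 were higher in cyp71-3 and 4, CYP71 among them, were lower. The largest rises among these 13 genes were those of the cytosolic cyclophilin ROC5 (0.66 ± 0.04), CYP59 (0.64 ± 0.07) and ROC7 (0.62 ± 0.04), all under 2-fold. SE, the gene mutated in se-1 (named here after its values were seen), had 31.7 ± 1.37 FPKM in wild-type libraries and 33.1 ± 0.21 in mutant ones (SD, n = 3), and its difference did not pass the test (limma adjusted p = 0.325), although it did after quantile normalization (0.14 on the log2 scale, limma adjusted p = 0.0322).

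The contrast was broad. Of 19089 genes tested, 12172 (63.8%) were called at a Benjamini-Hochberg adjusted p under 0.05 by limma, 5915 higher in cyp71-3 (31.0%) and 6257 lower (32.8%). Most of these calls were small: 67.8% of the called genes differed by less than 1.5-fold. A stricter rule, called and at least 2-fold different, left 695 genes higher (3.64%) and 582 lower (3.05%), or 6.69% of all tested, and 103 genes rose and 61 fell by at least 4-fold. Counts in the gene groups below are therefore read against 31.0% called higher and 32.8% called lower, and against 3.64% and 3.05% under the stricter rule. Groups did not overlap for 70.4% of tested genes. The median change over all tested genes was -0.007. The 5 nuclear chromosomes had called shares of 61.2% to 64.8%. Strong changes leaned upward among genes of low level and downward among abundant ones: of 4719 genes with a mean of 1 to 5 FPKM, 260 rose and 148 fell at least 2-fold, whereas of 1282 genes with a mean of at least 100 FPKM, 20 rose and 62 fell by that much.

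**Figure D1:**
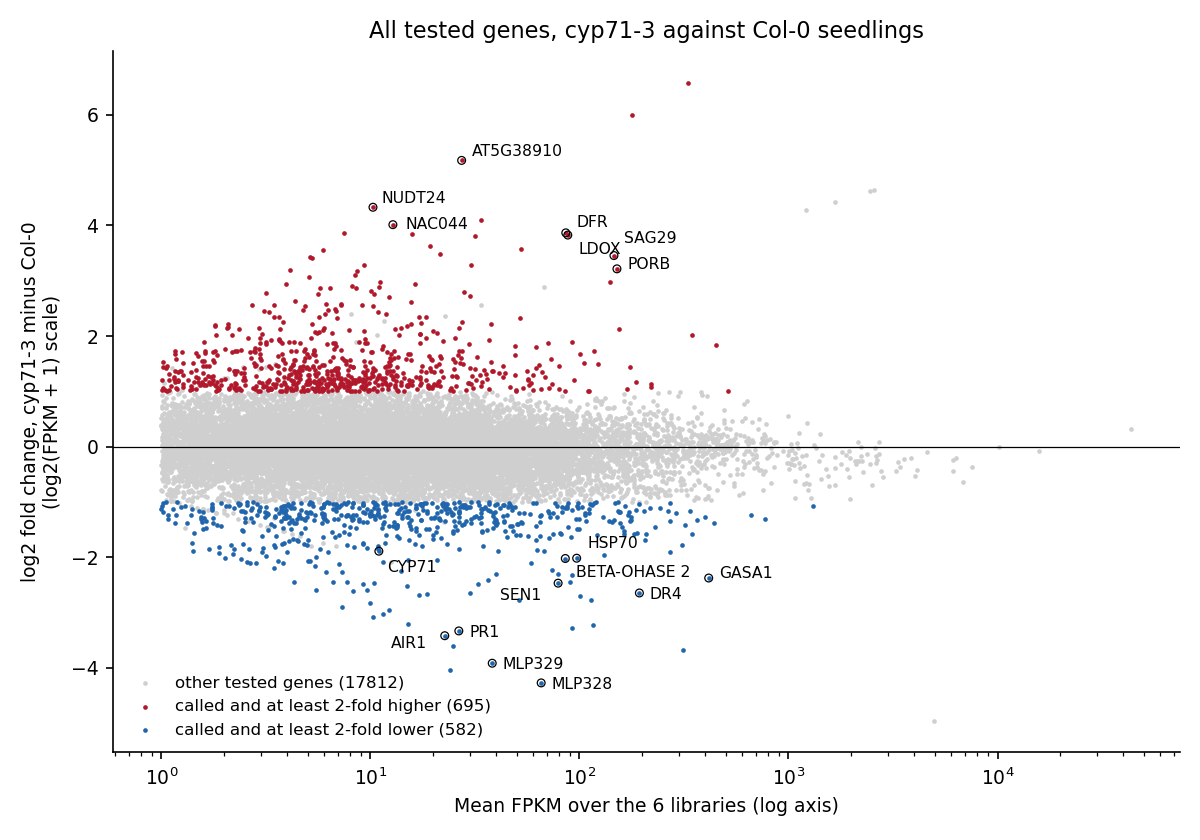
Mean FPKM over the 6 libraries (x, log axis) against the log2 fold change of cyp71-3 over Col-0 (y) for 19089 tested genes, each point a gene. The 695 genes called and at least 2-fold higher are red, the 582 called and at least 2-fold lower are blue, and circles mark some of the genes described in the text, such as CYP71 at -1.89.

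Genes with a symbol and the largest rises with groups that did not overlap belonged to several processes. NUDT24, a nudix hydrolase gene, measured 0.10, 0.06 and 0.05 FPKM in the wild type against 20.17, 20.5 and 20.8 in the mutant. It was close to silent in every wild-type library and uniform in the mutant, a change of 4.33 ± 0.14 (limma adjusted p = 4.11e-10). NDB4, encoding an NAD(P)H dehydrogenase of the mitochondrial inner membrane, showed the same shape, with 0.03, 0.12 and 0.06 FPKM in Col-0 against 9.47, 10.6 and 11.3 in cyp71-3. Late steps of anthocyanin synthesis were also among the 12 largest rises. LDOX, which makes anthocyanidins, went from 10.7 ± 0.95 to 165 ± 3.69 FPKM (SD, n = 3), a 15.4-fold ratio of means. UF3GT, a flavonoid glycosyltransferase gene, rose by 3.84 ± 0.08 and GSTF12, whose product carries anthocyanins to the vacuole, by 3.58 ± 0.05. SAG29, also known as the sugar exporter SWEET15, PORB of chlorophyll synthesis, the lipid transfer protein gene LTP4, CYP71A12 of indolic defence compounds and the NAC factor gene NAC044 completed the group, together with the dihydroflavonol reductase gene DFR and the precursor gene MIR157c. Without the condition on a symbol, the cupin gene AT5G38910 stood above all of these among genes with separate groups (named after its values were seen). It was at 0.31, 0.46 and 0.84 FPKM in Col-0 against 57.5, 54.9 and 49.8 in cyp71-3, a change of 5.18 ± 0.16 (limma adjusted p = 2.67e-10).

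The 12 largest falls among genes with a symbol and separate groups were led by a pair of neighbouring genes of the major latex protein-like family, whose proteins have a ligand-binding fold also found in pollen allergens. MLP328 measured 126, 122 and 129 FPKM in the wild type against 4.97, 5.38 and 6.39 in the mutant. MLP329 was at 75.7, 69.7 and 72.5 against 3.85, 3.73 and 4.05. All cyp71-3 libraries were far below all Col-0 libraries for both genes, with changes of -4.27 ± 0.10 and -3.92 ± 0.07 (limma adjusted p = 3.15e-11 and 8.16e-12). AIR1, a gene first found as auxin-induced in root cultures, fell by 13.8-fold in mean FPKM, and PR1, the salicylate-dependent pathogenesis-related gene, by 12.3-fold. RL6, a MYB-related RADIALIS-like gene, went from 13.7 ± 2.14 to 0.967 ± 0.26 FPKM (SD, n = 3). The abundant gene DR4, named as drought-repressed, went from 334 ± 15.1 to 52.6 ± 1.76. The senescence-associated gene SAG13, the latex-protein gene MLP34, the peroxiredoxin gene at AT1G65970, the indole glucosinolate methyltransferase gene IGMT1, the pathogenesis-related gene PRB1 and the phosphogluconolactonase gene PGL5 made up the remainder, with changes from -2.78 to -2.53. Genes without a symbol fell as far, such as AT1G53542 at -4.04 ± 0.87 and AT3G05727 at -3.67 ± 0.05 (named after their values were seen).

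**Figure D2:**
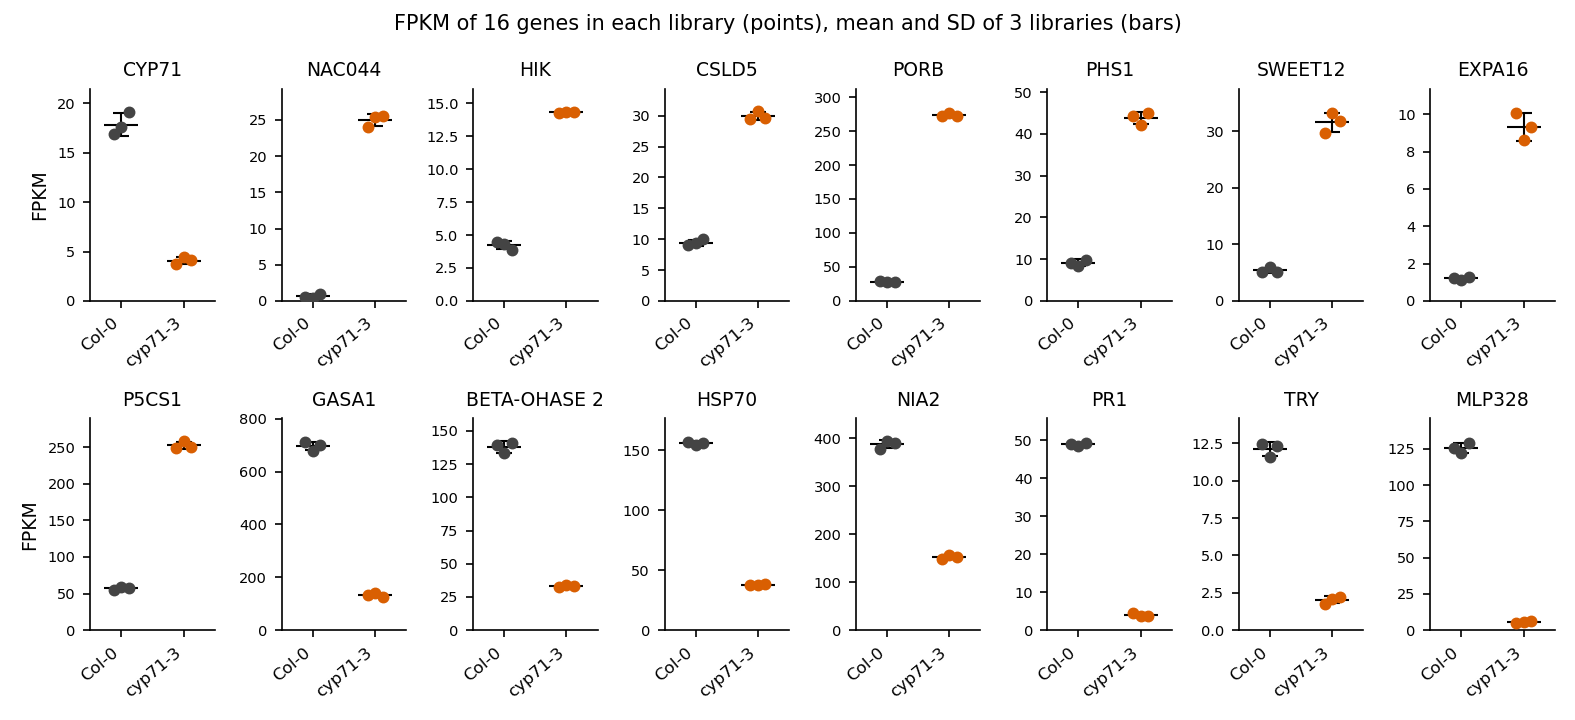
FPKM (y, each axis from 0) of 16 genes in the 3 Col-0 and the 3 cyp71-3 libraries; points are libraries, bars the mean ± SD. The groups do not overlap for any gene shown, for example 28.6 against 274 mean FPKM for PORB and 697 against 134 for GASA1.

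Mitosis and cytokinesis genes were higher in cyp71-3 almost without exception. These genes are switched on late in G2, when a cell commits to division, largely by MYB factors that bind short promoter elements known as mitosis-specific activator elements. Of 37 tested genes of the list, 36 were called higher and none was called lower, and 23 rose at least 2-fold, with a median of 1.15 against -0.007 for all tested genes. The exception was ERH3, a katanin subunit gene that severs microtubules in all cells, at -0.03 ± 0.06, which did not pass the test. CSLD5, encoding a cellulose synthase-like enzyme that acts in the new cell plate, was at 9.01, 9.33 and 9.96 FPKM in Col-0 against 29.4, 30.7 and 29.7 in cyp71-3. HIK, the phragmoplast kinesin HINKEL, was at 4.47, 4.34 and 3.89 against 14.3, 14.4 and 14.3. Aurora kinase gene AUR1 was at 6.01, 5.39 and 5.94 against 17.2, 19.6 and 19.2. In all of these the mutant libraries lay within a narrow band above the wild type, with changes of 1.57 ± 0.08, 1.55 ± 0.07 and 1.54 ± 0.08 (limma adjusted p = 1.18e-08, 5.64e-09 and 1.26e-08). The rest of the list rose by 0.36 to 1.53, and included cyclin, cyclin-dependent kinase, spindle checkpoint and syntaxin genes. The wider family of kinesins and microtubule motors was less uniform: 27 of 40 tested members rose and 7 fell. Among those that fell were KAC1 (-0.65 ± 0.06), which moves chloroplasts rather than chromosomes, and AT4G38950 (-1.42 ± 0.06), both named after their values were seen. Summed markers of the shoot meristem and organ boundaries, 6 genes, were also higher, the mutant libraries ranging from 18.75 to 19.55 FPKM against 12.68 to 12.86 for the wild type. Only 2 of these markers reached the level for testing, KNAT1 (0.32) and STM (0.73), and they made up most of the sum. The part of these markers in the rise of mitosis genes was not tested. In bulk seedling samples, more dividing cells and more transcript per dividing cell cannot be told apart.

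Promoters of 3 of these genes are shown because most promoters of the list hold a short motif. The core of the mitosis-specific activator element, AACGG, was searched on both strands in the 250 bases before the annotated start of each gene (TAIR10.1 genome and RefSeq annotation). It was present in 23 of 37 promoters of the list (62.2%) and in 21.8% of the promoters of all 18628 tested nuclear protein-coding genes. High shares were also found in lists that moved less, 47.6% of 21 histone promoters and 46.9% of 32 promoters of auxin transport and synthesis, whose median change was 0.05. In the mitosis list and in all genes, at least 2 copies were present in 27.0% and 4.1%. Among genes called and at least 2-fold higher the share with a copy was 28.5%, and among those at least 2-fold lower it was 15.3%. Capitals mark the motif, written AACGG or, on the other strand, CCGTT, and each sequence runs 5′ to 3′ and ends at the base before the gene start. CSLD5 lies at chr1:598658-598907, reverse strand, HIK at chr1:6324379-6324628, reverse strand and AUR1 at chr4:15842193-15842442, forward strand.
CSLD5: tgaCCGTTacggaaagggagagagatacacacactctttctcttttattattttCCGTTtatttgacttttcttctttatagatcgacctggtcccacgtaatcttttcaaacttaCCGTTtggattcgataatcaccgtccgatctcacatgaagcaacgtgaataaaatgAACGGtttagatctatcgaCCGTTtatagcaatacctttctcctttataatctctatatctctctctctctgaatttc
HIK: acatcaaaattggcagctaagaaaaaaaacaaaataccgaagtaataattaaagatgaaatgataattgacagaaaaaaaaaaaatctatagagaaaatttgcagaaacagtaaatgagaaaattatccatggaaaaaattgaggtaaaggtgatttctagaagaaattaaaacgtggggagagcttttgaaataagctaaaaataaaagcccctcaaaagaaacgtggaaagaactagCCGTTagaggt
AUR1: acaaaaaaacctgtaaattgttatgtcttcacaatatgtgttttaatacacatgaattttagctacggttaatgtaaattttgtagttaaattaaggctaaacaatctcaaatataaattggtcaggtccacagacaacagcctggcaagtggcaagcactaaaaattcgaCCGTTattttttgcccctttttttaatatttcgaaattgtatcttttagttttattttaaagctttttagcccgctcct
CSLD5 held 5 copies, and HIK and AUR1 held 1 each. A match describes letters in these windows only.

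DNA damage response genes were also mostly higher. In plants, double-strand breaks activate the NAC factor SOG1, which turns on repair genes and the cell cycle inhibitors that hold cells before mitosis. Of 28 tested genes of the list, 22 were higher, 11 of them at least 2-fold, and 2 were lower, with a median of 0.79, which was 0.48 with a pseudocount of 5 and 0.42 for genes with a mean of at least 5 FPKM. NAC044, a SOG1 target that restrains entry into mitosis, measured 0.59, 0.34 and 0.95 FPKM in the wild type against 24.0, 25.4 and 25.6 in the mutant. GMI1, a gamma-irradiation-induced gene of homologous recombination, was at 0.95, 1.05 and 1.1 against 10.8, 11.7 and 11.2. NAC103 was at 0.67, 0.52 and 0.39 against 6.42, 6.52 and 7.33. All were low in wild-type libraries and higher in every mutant library, with changes of 4.01 ± 0.12, 2.59 ± 0.10 and 2.35 ± 0.11 (limma adjusted p = 2.96e-10, 2.02e-09 and 6.31e-09). SOG1 itself was at 0.05 ± 0.10 and the gene of the break-sensing kinase ATM at -0.13 ± 0.12, and neither passed the test. The called falls were RNR2A, a small subunit gene of ribonucleotide reductase, at -0.92 ± 0.04, and KU70 of non-homologous end joining, at -0.24 ± 0.07.

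Promoters of NAC044 and PARP2 are shown for the SOG1 motif, CTT and AAG with any 7 bases between them, which reads the same on both strands, together with that of AT2G18193, which lies in a block of neighbouring genes that rose. PARP2, encoding a poly(ADP-ribose) polymerase of DNA repair (chosen after its values were seen), rose by 1.25 ± 0.09. The motif was present in 8 of 28 promoters of the list (28.6%), in 8.7% of those of all tested genes, in 10.7% of those at least 2-fold higher and in 8.2% of those at least 2-fold lower. The letters ACGTG, also searched, were in 12 of the same 28 promoters (42.9%) against 23.8% of all. Genes at least 2-fold higher and lower held ACGTG in 33.7% and 31.0% of cases. Capitals mark the motif. The windows are chr3:228825-229074, forward strand for NAC044, chr4:1049516-1049765, forward strand for PARP2 and chr2:7919346-7919595, reverse strand for AT2G18193.
NAC044: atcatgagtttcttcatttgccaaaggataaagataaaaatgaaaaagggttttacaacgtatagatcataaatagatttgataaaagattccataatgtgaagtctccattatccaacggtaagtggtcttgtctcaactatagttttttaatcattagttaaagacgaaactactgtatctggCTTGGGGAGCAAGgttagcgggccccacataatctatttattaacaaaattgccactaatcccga
PARP2: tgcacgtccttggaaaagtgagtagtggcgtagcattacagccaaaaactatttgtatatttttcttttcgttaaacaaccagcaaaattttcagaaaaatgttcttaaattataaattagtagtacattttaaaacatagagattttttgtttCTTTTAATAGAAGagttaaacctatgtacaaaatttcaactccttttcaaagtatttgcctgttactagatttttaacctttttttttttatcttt
AT2G18193: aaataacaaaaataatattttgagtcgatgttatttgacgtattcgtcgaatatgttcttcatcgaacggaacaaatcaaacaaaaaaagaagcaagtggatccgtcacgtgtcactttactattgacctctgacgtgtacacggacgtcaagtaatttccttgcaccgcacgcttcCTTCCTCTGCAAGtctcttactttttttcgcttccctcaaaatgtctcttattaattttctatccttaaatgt
Each of these windows held 1 copy, whereas most promoters of the list held none. As above, a match describes letters in these windows only.

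Genes of DNA replication, histones and chromatin moved less than mitotic genes. Of 29 tested replication genes, 20 were higher, none of them 2-fold, and 1 was lower, with a median of 0.24. MCM10, a factor that activates the replicative helicase, rose by 0.73 ± 0.09 and the origin recognition gene ORC6 by 0.67 ± 0.08, while the DNA ligase gene LIG1 was at -0.34 ± 0.06. Of 21 tested linker and core histone genes, 15 were higher and 2 lower. HTA6, an H2A gene, had 119, 105 and 109.7 FPKM in Col-0 against 209.8, 221 and 219.8 in cyp71-3. HTR12, encoding the centromeric H3 variant, rose by 0.88 ± 0.09. The linker histone gene HIS1-3, known as drought-inducible, was at -0.68 ± 0.10. The 37 tested genes of chromatin assembly and Polycomb repression went both ways, 14 higher and 9 lower with none 2-fold changed and a median of 0.06, so that their called share of 62.2% was near the 63.8% of all genes. The largest rise there was that of the maintenance DNA methyltransferase gene MET1 (0.76 ± 0.06), and the largest fall that of the histone chaperone gene NAP1;3 (-0.51 ± 0.04). Among genes for described partners of the CYP71 protein, FAS1, the large subunit of CAF-1, was at 0.29 ± 0.08 and TFL2, which encodes LHP1, at -0.33 ± 0.08 (both named after their values were seen; limma adjusted p = 0.00646 and 0.00227).

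**Figure D3:**
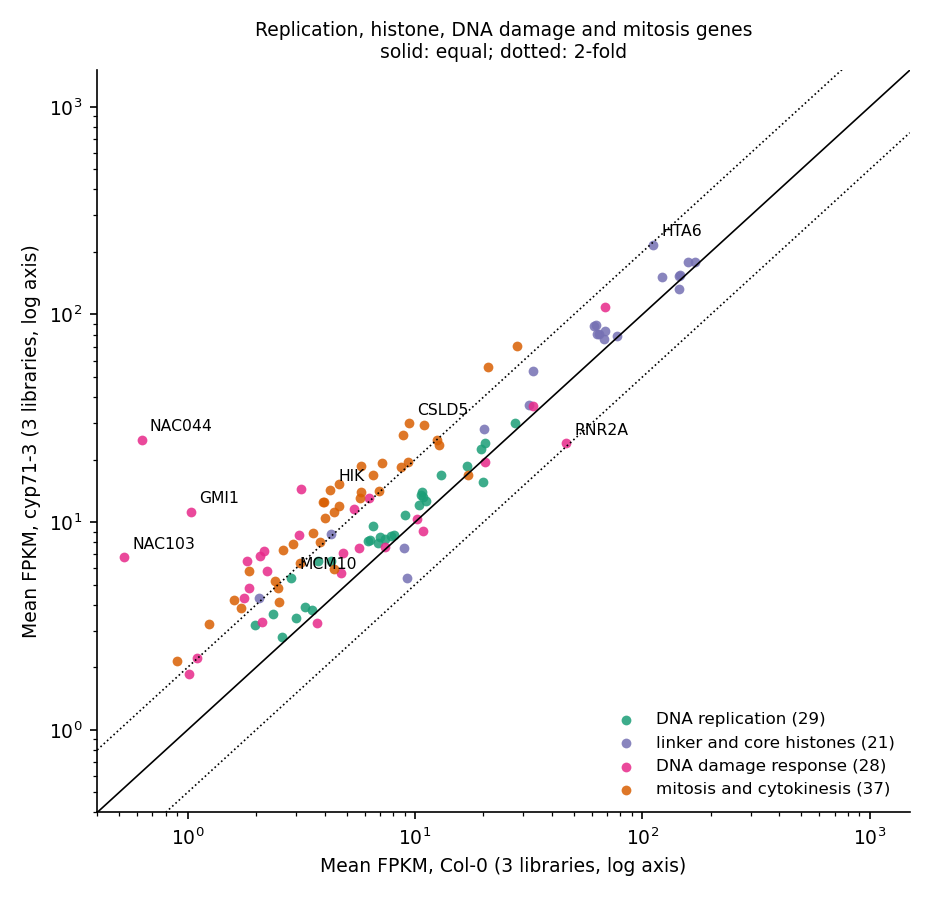
Mean FPKM of the 3 Col-0 libraries (x, log axis) against that of the 3 cyp71-3 libraries (y, log axis) for tested genes of 4 lists; the solid line marks equal levels and the dotted lines a 2-fold difference. Of 37 mitosis genes 36 were called higher, 20 of 29 replication genes were called higher but none 2-fold, and NAC044, GMI1 and NAC103 lie far above the upper dotted line.

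Genes for expansins, xyloglucan-modifying enzymes and extensins, all proteins of the growing wall, mostly rose. Expansins slip cellulose and xyloglucan apart so that a wall can extend, and 19 of 23 tested expansin genes were higher in cyp71-3, 8 at least 2-fold, against 2 lower. EXPA16 was at 1.25, 1.13 and 1.29 FPKM in Col-0 against 10.1, 8.60 and 9.29 in cyp71-3, and EXPB2 was at 0.07, 0.08 and 0.07 against 2.76, 4.88 and 4.63. Both were separate between genotypes in every library, with changes of 2.21 ± 0.12 and 2.22 ± 0.16 (limma adjusted p = 2.56e-08 and 2.96e-07). EXPA5 was at -0.50 ± 0.05. Of 26 xyloglucan endotransglucosylase genes, whose products cut and rejoin xyloglucan, 17 rose and 6 fell. XTH20 rose by 1.77 ± 0.14 and XTH33 by 1.76 ± 0.16, and XTH6 was at -1.26 ± 0.04. Extensins, hydroxyproline-rich wall proteins found by their product names, rose in 15 of 17 tested genes, among them EXT12 (1.14 ± 0.10), and 1 fell.

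Root hair genes moved with the expansins. Of 37 tested genes of root hair and epidermal patterning, 22 rose, 7 at least 2-fold, and 6 fell. EXPA7, an expansin of growing root hairs, was at 3.19, 3.1 and 3.86 FPKM in Col-0 against 11.9, 11.8 and 11.8 in cyp71-3, and the wall protein gene PRP1 rose by 1.46 ± 0.11. Both were higher in all mutant libraries, whereas the root hair regulator genes RHD6 (0.16 ± 0.12) and RSL4 (0.23 ± 0.13) did not pass the test (named after their values were seen). TRY, a small MYB that blocks trichome fate in neighbouring cells, went the other way, from 12.5, 11.6 and 12.3 FPKM in Col-0 to 1.78, 2.09 and 2.25 in cyp71-3 (limma adjusted p = 8.71e-09). The 5 trichome markers together gave 21.2 to 22.9 FPKM in Col-0 and 10.3 to 13.8 in cyp71-3, and TRY made up most of that sum in Col-0. Of 8 tested root markers, 6 were higher and 2 lower, and EXPA7, EXPA18 and PRP3 stand in both sets. The part of root markers in the rise of root hair genes was not tested.

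Auxin-induced SAUR genes, lignin genes and suberin genes mostly fell. SAUR proteins promote cell expansion in elongating organs, and 36 of 58 tested SAUR-like genes were lower, 11 at least 2-fold, against 6 higher, with a median of -0.57, or -0.26 with a pseudocount of 5. Of 30 genes of secondary walls and lignin, 19 were lower and 1, the laccase gene LAC11 (0.39 ± 0.06), was higher. The largest falls were in early steps of phenylpropanoid synthesis: PAL4, encoding a phenylalanine ammonia-lyase, went from 22.8 ± 1.02 to 8.50 ± 0.30 FPKM (SD, n = 3), PAL2 from 198 ± 0.86 to 96.8 ± 0.14 and the coumarate ligase gene 4CL1 from 257 ± 3.57 to 128 ± 1.36. MYB46, a master regulator of secondary walls (-0.01 ± 0.14, named after its values were seen), did not pass the test. Suberin seals the root endodermis and periderm, and 13 of 21 suberin genes were lower and 1 higher. The suberin transporter gene ABCG6 was at -0.94 ± 0.08 and CASP4, a scaffold of the Casparian strip, at -0.87 ± 0.13. Cuticle genes followed with 17 of 31 lower and 3 higher, none 2-fold changed. Aquaporin genes were lower in 16 of 25 cases and higher in 4. TIP2;3, a tonoplast channel gene of roots, was at 43.5, 39.5 and 43.0 FPKM in Col-0 against 9.50, 12.1 and 11.1 in cyp71-3, so it fell by 1.86 on the log2 scale. It is itself one of the 8 tested root markers, of which 6 were higher and 2, TIP2;3 among them, were lower.

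**Figure D4:**
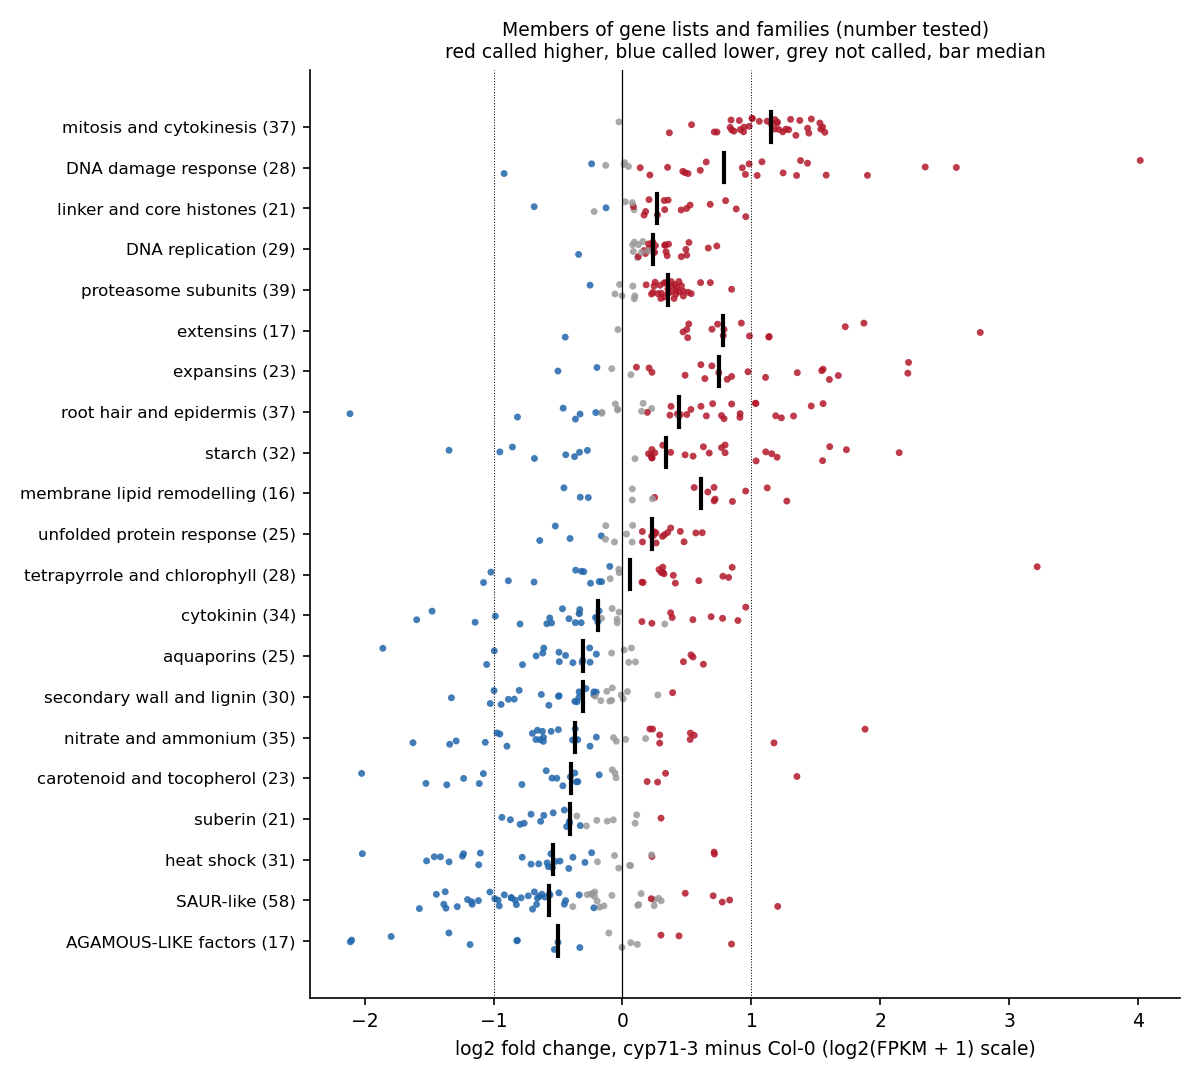
log2 fold change of cyp71-3 over Col-0 (x) of every tested member of 21 gene lists and families (rows, number tested in brackets), called higher in red, called lower in blue and not called in grey; the black bar is the median. Medians run from 1.15 for mitosis genes to -0.57 for SAUR-like genes, and dotted lines mark a 2-fold change.

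Starch genes changed almost throughout, and with a split between enzymes. Leaves store starch by day and break it down at night through phosphate tagging, debranching and beta-amylases. Of 32 tested genes, 23 were higher and 8 lower, 8 and 1 of them at least 2-fold. PHS1, the plastid glucan phosphorylase gene, was at 9.14, 8.35 and 9.92 FPKM in Col-0 against 44.2, 42.2 and 44.9 in cyp71-3. SEX4, a phosphoglucan phosphatase gene, was at 5.82, 5.62 and 5.47 against 20.6, 19.4 and 17.8, and APL3, a large subunit gene of the enzyme that makes ADP-glucose, at 11.2, 11.7 and 12.3 against 40.7, 42.6 and 41.0. All were higher in each mutant library, by 2.15 ± 0.08, 1.61 ± 0.07 and 1.74 ± 0.05 (limma adjusted p = 8.99e-10, 2.9e-09 and 2.88e-10). The falls included the beta-amylase genes BMY3 (-1.34 ± 0.04) and CT-BMY (-0.85 ± 0.03) and GBSS1, which makes amylose (-0.95 ± 0.03). Sugar transport genes were split, with 16 of 40 higher and 15 lower. SWEET12, a sucrose exporter of phloem loading, was at 5.20, 5.94 and 5.13 FPKM in Col-0 against 29.8, 33.2 and 31.8 in cyp71-3. GPT2, which imports glucose phosphate into plastids, was at 1.91, 1.73 and 1.98 against 20.14, 19.9 and 20.4. SAG29 rose by 3.46 ± 0.06, whereas the vacuolar transporter gene SWEET16 was at -1.23 ± 0.08 and SWEET2 at -1.21 ± 0.06.

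Phosphate starvation genes were in part higher. When phosphate runs short, plants free it from phospholipids and replace those with galactolipids and sulfolipids, under PHR1, a factor that binds the element named P1BS. Of 23 tested genes of SPX proteins, transporters and phosphatases, 14 rose, 5 at least 2-fold, and 6 fell, PHR1 among them (-0.58 ± 0.04). PS2, a phosphatase gene, was at 10.2, 8.09 and 8.36 FPKM in Col-0 against 46.5, 46.6 and 45.1 in cyp71-3, and SPX3, encoding an inhibitor of PHR1, at 1.04, 1.28 and 1.06 against 4.15, 3.63 and 3.99. The non-coding RNA gene AT4, a decoy of the microRNA that targets phosphate transport control, rose by 1.82 ± 0.04. Of 16 tested genes of membrane lipid remodelling, 10 were higher and 3 lower, with a median of 0.61, which was 0.36 with a pseudocount of 5 and 0.40 for genes with a mean of at least 5 FPKM. The rises included the phosphate-responsive enzyme genes MGDC (1.27 ± 0.10) and MGD2 (0.95 ± 0.07) of galactolipid synthesis and the phospholipase gene PLDP2 (1.12 ± 0.11). The housekeeping galactolipid genes MGD1 (-0.45 ± 0.04) and DGD1 (-0.33 ± 0.05) were lower.

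Promoters of PS2, SPX3 and PLDP2 are shown for the P1BS letters GNATATNC, which read the same on both strands. They were present in 6 of 16 lipid remodelling promoters (37.5%), in 4 of 23 of the other phosphate list, and in 5.5% of those of all tested genes. Genes at least 2-fold higher and lower had close shares, 7.6% and 6.9%. The letters of the heat shock element, GAANNTTC, were in 7 of the same 16 promoters (43.8%) against 9.2% of all. Capitals mark the P1BS letters. The windows are chr1:27466349-27466598, reverse strand for PS2, chr2:18606160-18606409, forward strand for SPX3 and chr3:1634944-1635193, forward strand for PLDP2.
PS2: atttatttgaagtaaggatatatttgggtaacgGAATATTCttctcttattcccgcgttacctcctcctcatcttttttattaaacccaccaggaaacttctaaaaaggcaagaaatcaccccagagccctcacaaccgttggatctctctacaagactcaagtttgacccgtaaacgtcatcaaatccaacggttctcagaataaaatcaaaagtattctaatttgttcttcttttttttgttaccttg
SPX3: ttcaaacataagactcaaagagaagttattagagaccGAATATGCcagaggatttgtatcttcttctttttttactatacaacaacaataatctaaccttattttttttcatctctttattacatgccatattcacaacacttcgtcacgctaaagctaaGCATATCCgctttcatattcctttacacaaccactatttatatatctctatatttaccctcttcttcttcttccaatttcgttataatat
PLDP2: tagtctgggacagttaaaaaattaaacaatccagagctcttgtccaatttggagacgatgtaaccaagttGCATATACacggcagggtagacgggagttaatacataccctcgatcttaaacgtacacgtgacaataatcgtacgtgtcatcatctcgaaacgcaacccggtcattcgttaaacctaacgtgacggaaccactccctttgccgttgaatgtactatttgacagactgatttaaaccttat
SPX3 held 2 copies, and PS2 and PLDP2 held 1 each.

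Nitrate genes fell for the most part. Of 35 tested genes of nitrate and ammonium use, 22 were lower and 9 higher. NIA2, the main nitrate reductase gene, was at 378, 394 and 391 FPKM in Col-0 against 149, 157 and 152 in cyp71-3. BT1, a nitrate-responsive scaffold protein gene, was at 101, 95.8 and 96.5 against 31.8, 30.9 and 30.6, and its relative BT2 was at -1.29 ± 0.05. Every mutant library was below every wild-type library for these genes (limma adjusted p = 2.53e-10, 4.95e-11 and 2.53e-09). NRT2:1, the high-affinity root nitrate transporter gene, had 0.90, 0.49 and 0.69 FPKM in Col-0 against 5.08, 4.73 and 5.86 in cyp71-3, a rise of 1.88 ± 0.13. NRT1.8, which removes nitrate from xylem sap, rose by 1.17 ± 0.15. Of 30 tested sulfate genes, 8 were higher, 6 at least 2-fold, and 12 lower. The rises took in genes known to respond to sulfur shortage, such as the beta-glucosidase gene BGLU28 (0.620 ± 0.15 to 10.8 ± 0.47 FPKM, SD, n = 3), the phloem sulfate transporter gene SULTR1;3 (2.02 ± 0.12) and the vacuolar exporter gene SULTR4;2 (1.88 ± 0.07). The reductase genes APR2 (-0.93 ± 0.04) and APR3 (-0.74 ± 0.03) were lower.

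Pigment genes of the chloroplast changed strongly at single steps. PORB, which reduces protochlorophyllide in the light, was at 28.9, 28.5 and 28.3 FPKM in Col-0 against 272, 276 and 272 in cyp71-3, a 9.58-fold ratio of means (limma adjusted p = 1.46e-13). No other gene of the tetrapyrrole list was 2-fold higher. Of its 28 tested genes, 14 were higher and 11 lower. The early enzymes HEMC (0.82 ± 0.03) and GSA2 (0.85 ± 0.03) rose, and GLK2, a factor that switches on chloroplast genes, was at -1.08 ± 0.04. Carotenoid and tocopherol genes were lower in 16 of 23 cases, 6 at least 2-fold, and higher in 4. BETA-OHASE 2, a carotene hydroxylase gene, was at 139.7, 133 and 141 FPKM in Col-0 against 32.7, 33.8 and 33.1 in cyp71-3, and the related BETA-OHASE 1 went from 243 ± 1.89 to 83.9 ± 3.29. VTE1, the tocopherol cyclase gene, was at -1.36 ± 0.04. The largest of the 4 rises was that of NCED3, which cuts carotenoids to start abscisic acid synthesis, at 1.35 ± 0.09. Of 36 genes of light and shade responses 12 were higher and 20 lower. RUP2, a repressor of the ultraviolet-B receptor, was at -1.57 ± 0.05. Leaf markers were not uniform in the same libraries: the Rubisco activase gene RCA was at -0.63 ± 0.04, while the small Rubisco subunit gene RBCS1A (-0.08 ± 0.04) and the antenna gene CAB1 (-0.00 ± 0.05) did not pass the test, the former passing when only the 6 libraries compared were fitted (limma adjusted p = 0.00276).

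Hormone pathways changed member by member. Gibberellin genes were called higher in 10 and lower in 10 of 24 cases. GA2OX2, which inactivates gibberellin, was at 1.84, 1.45 and 1.34 FPKM in Col-0 against 10.8, 9.74 and 8.11 in cyp71-3, and GA20OX2 of gibberellin synthesis rose by 1.17 ± 0.11. GASA1, a gibberellin-regulated peptide gene, had 711, 679 and 701 FPKM in Col-0 against 135, 139 and 127 in cyp71-3, a fall by 2.38 on the log2 scale (limma adjusted p = 6.14e-12). Cytokinin genes were lower in 18 of 34 cases and higher in 9. The response regulators ARR15 (11.2 ± 1.15 to 3.03 ± 0.40 FPKM, SD, n = 3) and ARR4 (127 ± 2.6 to 57.1 ± 1.5), induced by cytokinin and acting as brakes on it, fell, as did LOG1, an activating enzyme gene (-1.48 ± 0.05). CRF6, a cytokinin response factor gene, rose by 0.90 ± 0.07. Brassinosteroid genes were lower in 12 of 26 cases, led by the receptor inhibitor gene BKI1 (-1.06 ± 0.06), and higher in 6. In ethylene genes, 11 of 26 were lower and 3 higher, and ERF11 rose by 1.33 ± 0.13. Genes of auxin transport and synthesis showed 11 rises and 10 falls among 32, none 2-fold, a called share of 65.6% beside 63.8% of all genes. TAA1 of auxin synthesis was at 0.81 ± 0.09 and the efflux carrier gene PIN4 at -0.82 ± 0.04.

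Heat shock genes, which encode chaperones and their regulators, mostly fell. Of 31 tested genes of the list, 22 fell, 9 at least 2-fold, and 3 rose, with a median of -0.54. HSP70 (AT3G12580) was at 157, 154 and 157 FPKM in Col-0 against 37.5, 37.5 and 38.5 in cyp71-3, and HSP90.1 at 36.3, 37.0 and 38.0 against 12.2, 12.4 and 12.3. The genotypes did not overlap, and the changes were -2.02 ± 0.03 and -1.52 ± 0.05 (limma adjusted p = 2.41e-12 and 5.59e-10). HSFA2, a heat shock factor that sustains this response, was at -1.46 ± 0.10. In the other direction, CPN60B, a plastid chaperonin gene, rose by 0.71 ± 0.04 and the small heat shock protein gene HSP18.2 by 0.71 ± 0.16. Genes of the endoplasmic reticulum folding response rose modestly, 15 of 25 higher and 4 lower with none 2-fold changed, for example the disulfide isomerase gene PDIL1-1 (0.62 ± 0.04). Proteasome subunit genes, which encode the particle that degrades ubiquitin-tagged proteins, were higher in 32 of 39 cases and lower in 1. Their changes were small, with a median of 0.35 and no gene at 2-fold.

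Stress, defence and senescence markers did not move as blocks. In pattern-triggered and camalexin immunity, 12 of 33 genes rose and 11 fell, a called share of 69.7% beside 63.8% of all genes. CYP71A12 was at 2.51, 2.56 and 2.96 FPKM in Col-0 against 38.9, 42.5 and 39.5 in cyp71-3, and the factor gene WRKY18 rose by 1.67 ± 0.06. PR1 was at 49.1, 48.5 and 49.3 against 4.5, 3.79 and 3.64, and the salicylate-related genes BGL2 (-1.01 ± 0.09) and PR5 (-0.96 ± 0.10) were lower with it. For indolic glucosinolates, 14 of 28 genes fell and 5 rose. CYP81F4 and IGMT1, which hydroxylate and methylate the indole ring, had changes of -1.89 ± 0.04 and -2.60 ± 0.12. Senescence genes were also split, 9 higher and 14 lower of 26. SEN1, a dark-inducible gene, went from 135 ± 6.2 to 23.5 ± 1.15 FPKM (SD, n = 3), while SAG101, a partner of the immune regulator EDS1, rose by 1.21 ± 0.13. Among 39 glutathione transferase genes, 15 rose and 20 fell, from 3.58 for GSTF12 to -1.43 for GSTF14. Oxidative stress genes showed 16 rises and 11 falls among 39. The plastid superoxide dismutase gene FSD2 rose by 1.17 ± 0.08 and the catalase gene CAT3 by 0.99 ± 0.04, and the glutathione peroxidase gene GPX7 was at -1.44 ± 0.07. Low oxygen genes were higher in 10 of 20 cases and lower in 4, with the factor gene ERF71 at 1.5 ± 0.14.

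In 4 sets of related genes, put side by side after their values were seen, a member rose and another fell. P5CS1, a proline synthesis gene induced by water stress, was at 54.4, 59.0 and 57.5 FPKM in Col-0 against 248, 258 and 251 in cyp71-3, while its housekeeping counterpart P5CS2 was at -0.68 ± 0.06. The galactinol synthase genes, first step of raffinose synthesis, showed GolS2 at 6.28, 6.51 and 5.83 against 28.6, 27.1 and 29.7 FPKM and GolS1 at 69.7, 62.1 and 69.6 against 13.0, 12.9 and 12.4. For all of these genes the genotypes were separate in every library. The light-stress proteins of the thylakoid gave a further set, with ELIP1 at 0.98 ± 0.06 and ELIP2 at -1.91 ± 0.05, and the GASA peptide family another, with GASA6 at 1.67 ± 0.04 and GASA1 at -2.38 ± 0.04. The changes of all 8 genes passed the test (limma adjusted p from 6.14e-12 for GASA1 to 1.64e-06 for P5CS2). A separate count, which does not say how common such sets are, took 538 pairs of neighbouring tested genes with the same product text. Some of these share only a text such as uncharacterized protein. With both members called and at least 2-fold changed, 25 pairs moved in the same direction and 2 in opposite directions. The latter were the uncharacterized genes AT3G44405 and AT3G44430 and the cupin genes AT5G38910, which rose, and AT5G38930, at 4.82, 4.0 and 4.15 FPKM in Col-0 against 0.59, 0.40 and 0.75 in cyp71-3. Fragments shared between near-identical copies may have been assigned to either, and their part in these values was not tested.

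Genes of meristems and organ boundaries went both ways. Of 28 tested genes of the list, 14 were higher, 4 at least 2-fold, and 7 lower. WOX5, which marks the organiser of the root stem cells, was at 0.47, 0.71 and 0.37 FPKM in Col-0 against 3.74, 3.72 and 4.53 in cyp71-3 (limma adjusted p = 3.73e-07). AIL5 and AIL7, AINTEGUMENTA-like factor genes of growing organs, rose by 1.11 ± 0.11 and 1.06 ± 0.13. The shoot meristem gene STM rose by 0.73 ± 0.10 (a marker of the label check), whereas HAM3 (-0.80 ± 0.08), HAM2 (-0.74 ± 0.06) and the leaf blade gene WOX1 (-0.81 ± 0.10) were lower. Among 17 tested AGAMOUS-LIKE genes, a branch of the MADS-box factors, 10 fell, 5 at least 2-fold, and 3 rose. AGL42 was at 4.98, 4.88 and 5.81 FPKM in Col-0 against 0.24, 0.51 and 0.59 in cyp71-3 (limma adjusted p = 1.75e-08), and AGL15 was the largest rise of the family at 0.85 ± 0.10. B-box factor genes, many of them light-regulated, were lower in 10 of 16 cases and higher in 4. In the NAC, MYB, WRKY and ERF and DREB families the called shares were 57.7%, 65.3%, 64.0% and 63.6%, beside 63.8% of all genes. Their extremes were NAC044 and NAC3 (-1.20 ± 0.06), MYB90 (1.48 ± 0.13) and MYB20 (-1.44 ± 0.09), WRKY48 (1.75 ± 0.12) and WRKY26 (-1.0 ± 0.11), and ERF71 and RAP2.1 (-1.20 ± 0.11). MYB90 is an activator of anthocyanin genes. Among TCP factor genes, TCP17, a regulator of leaf growth, was at -1.33 ± 0.14.

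Some large changes came in blocks along a chromosome. In chromosome order, 10 runs of at least 3 neighbouring tested genes were all called and at least 2-fold changed in one direction, 4 higher and 6 lower, with 34 genes in all. The longest run was 6 genes on chromosome 4, AT4G22475 to AT4G22517, of which all but AT4G22475 are annotated as lipid-transfer or seed-storage-type proteins. AT4G22505 was at 50.1, 52.0 and 54.3 FPKM in Col-0 against 7.31, 7.72 and 7.32 in cyp71-3, and AT4G22490 at 163, 143 and 158 against 32.4, 30.1 and 27.8. All 6 genes fell, with changes between -1.32 and -2.65. In the wider family of lipid transfer proteins, which move lipids to surfaces, 36 of 67 tested genes fell, 14 at least 2-fold, and 19 rose. LTP4 went against them, at 1.86, 0.37 and 0.82 FPKM in Col-0 against 16.8, 19.0 and 17.2 in cyp71-3.

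The other runs were shorter and often joined related copies. GSTF7, GSTF6 and GSTF5, neighbouring glutathione transferase genes, rose by 1.02, 1.73 and 1.46. The SAUR-like genes AT1G29420, AT1G29430, SAUR63 and AT1G29450, which lie in a row, had changes of -1.39, -1.12, -1.37 and -1.03. TPS12, a terpene synthase gene, fell with the neighbouring cytochrome P450 genes CYP71A19 and CYP71A20 (-1.90, -1.03 and -1.39). The run of AT2G18180, AT2G18190 and AT2G18193 rose. AT2G18193, annotated as a nucleoside triphosphate hydrolase gene, was at 3.34, 3.21 and 3.56 FPKM in Col-0 against 59.9, 61.2 and 58.7 in cyp71-3, and AT2G18190 was listed at 0 in all Col-0 libraries and at 7.33, 8.51 and 8.82 in the others. BUB3.2, a relative of spindle checkpoint genes, rose by 1.17 ± 0.09 together with a transposase-related gene and a non-coding RNA gene beside it. The remaining runs joined AT4G13370, EXT12 and RTFL12, which rose, AT2G04790 to AT2G04800 and AT5G23350 to AT5G23370, which fell, and MES16, a methyl esterase gene, with AT4G06410 and AT4G16680, which fell. Of 77 tested genes within 4 places of a run, 57 were called and 7 were called and at least 2-fold changed. Over all tested genes these shares were 63.8% and 6.69%. The rule that defines a run fixes that the gene next to it fell short of 2-fold or went the other way. Where neighbours overlap or are near-identical, shared fragments may link their values, and this was not tested.

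**Figure D5:**
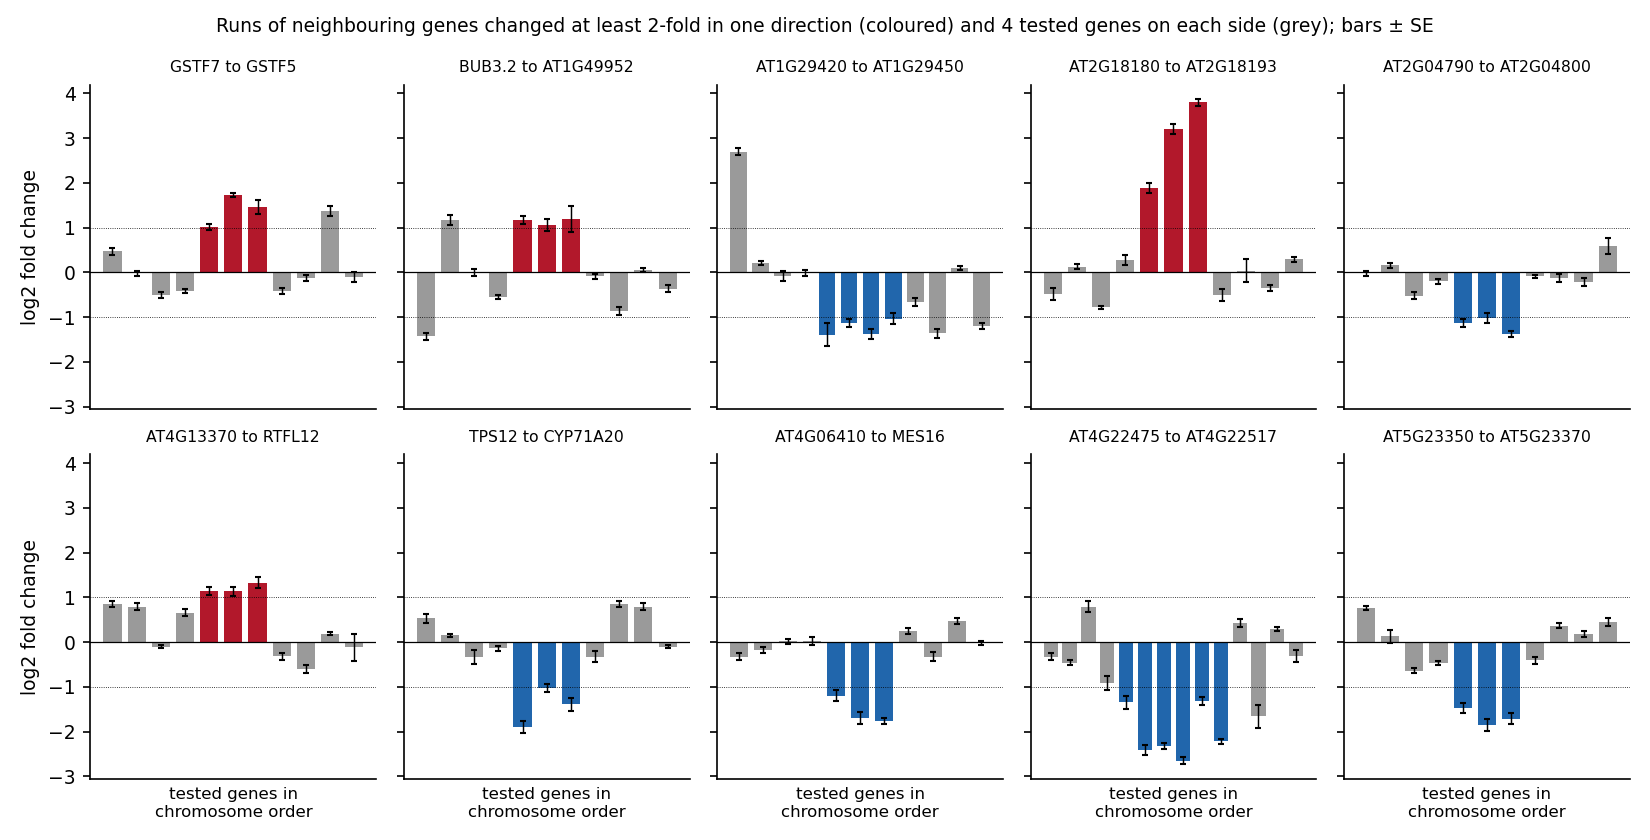
log2 fold change ± SE (y) of tested genes in chromosome order (x, one bar a gene) around the 10 runs; members of a run are coloured, red higher and blue lower in cyp71-3, and the 4 tested genes on each side are grey. Outside the runs 7 of 77 genes were called and at least 2-fold changed, beside 6.69% of all tested genes. Of the grey genes, 3 stand beside both of the neighbouring runs on chromosome 4.

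Genes listed at 0 in one genotype were few. Of the tested genes, 7 were listed at 0 in all Col-0 libraries and at 1 FPKM or more in all cyp71-3 libraries, and 0 showed the reverse. MIR157c, a precursor gene of the miR156 and miR157 family, was the only one with a symbol, at 23.9, 13.6 and 7.55 FPKM in cyp71-3, and its level varied widely among those libraries. AT1G30170 at 3.23, 4.42 and 3.12 and AT5G03090 at 7.34, 2.28 and 6.61 FPKM were others (named after their values were seen). Very short RNA genes gave the least stable values. U4.8 and U4.5, copies of a spliceosomal RNA, were listed at 0 in all Col-0 libraries but also in cyp71-3 replicate 2, and at 658 and 356 FPKM on average, so their calls rest on 2 libraries (limma adjusted p = 0.0122 and 0.0123). Of 29 tested microRNA precursor genes 5 were higher and 4 lower, and of 237 long non-coding RNA genes 42 were higher and 60 lower. Both called shares were below the 63.8% of all tested genes.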

How the data were processed

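Seedling mRNA was measured in 9 libraries, of which 6 were compared. Per the labels' protocols, RNA was extracted with TRIzol and mRNA captured on beads before fragmentation and PCR. The authors deposited FPKM values per gene and library, and the submitters' processing notes name TAIR10, STAR 2.7.2b, Trim Galore 0.6.7, Cuffdiff and Cuffnorm, without their settings. The sources used here do not give strand use or the treatment of fragments shared between copies. FPKM hold no counts, so depth was only estimated from the lowest steps between values, and short or low genes rest on few fragments.

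From these values, log2(FPKM + 1) was fitted with limma 3.58.1 in R 4.3.3 over all 9 libraries (3 genotypes, intensity trend, two-sided) for genes with a mean of at least 1 FPKM over the 6 libraries, with Benjamini-Hochberg adjustment over all 19089 genes. Genes were called at an adjusted p under 0.05. Members and gene lists were chosen with earlier results of these data known, so list counts are descriptions. There were 38 lists with 1316 entries, and 43 product-name families. List entries not tied to a single gene, or tied to a wrong one, were left out. This kept 13 of 31 listed cyclophilins and 22 of 35 linker and core histones. Named genes were the 12 largest rises and falls with a symbol and separate groups, up to 3 per direction in each list, family extremes, genes at 0 in one genotype and genes in runs; others are marked in the text or serve as label checks or members set beside them. Names and promoters came from the TAIR10.1 genome with its RefSeq annotation, in which 32538 of 32823 locus names were found. In addition to the 3 motifs marked in the sequences, the heat shock element GAANNTTC, the evening element AAATATCT, ACGTG, AAACCCTA and TTTGGCGG were searched, 8 motifs in all.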

Additional observations from a re-analysis of the deposited data

How the results depend on the processing

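CYP71 stayed lower and called under all 17 alternatives tried (-1.94 to -1.83 on the log2 scale when single libraries were left out). Asking for more than 1.5-fold with limma's treat left 914 genes higher and 1027 lower. The counts of genes called and at least 2-fold different moved with the low genes: a pseudocount of 5 gave 224 higher and 264 lower, a mean of at least 5 FPKM, which tests fewer genes, gave 435 higher and 435 lower, and a pseudocount of 0.1 gave 1041 higher and 877 lower, so the excess of rises over falls was absent at 5 FPKM and turned with a pseudocount of 5. Leaving out each library in turn gave 5234 to 5521 genes higher and 5748 to 5961 lower, and 664 to 713 and 571 to 613 at 2-fold. Of 175 other called genes with printed values, 0 reversed under any alternative, 32 lost the call under treat and 2, U4.5 and U4.8, lost it under another alternative: robust prior variance, or leaving out cyp71-3 replicate 1 or 3. Quantile normalization turned the sign of the median of 3 families, the chlorophyll a/b-binding proteins, heat shock factors and WOX factors, and a mean of at least 5 FPKM that of 6 lists or families. Leaving out Col-0 replicate 3 turned that of 2 families, and leaving out cyp71-3 replicate 2 or 3 that of 1 each, the WOX factors, while the median of all genes stayed between -0.022 and 0.001. Equal replicate numbers were not shown to pair the samples (correlations of their deviations -0.076, -0.121 and 0.016), and with the replicate number as a block 5765 genes were higher and 6131 lower, 695 and 585 at 2-fold.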

Other observations

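In several families more members were called lower than higher in cyp71-3, and 4 of them are given first. Of 136 tested cytochrome P450 genes, whose products oxidise many secondary metabolites and hormones, 66 were lower and 26 higher. Of 93 UDP-glycosyltransferase genes, whose products attach sugars to small molecules, 50 were lower and 12 higher. Of 29 tested major latex protein-like genes, 18 were lower and 9 higher, with 5 and 3 of them at least 2-fold changed. NLR immune receptor genes were lower in 41 and higher in 14 of 91 tested cases. The same lean was seen in receptor-like kinases with leucine-rich repeats (51 of 130 lower, 25 higher) and ABC transporters (32 of 74 lower, 13 higher). GDSL lipases also leaned this way (26 of 49 lower, 14 higher). Other families leaned upward, such as pectate lyases and polygalacturonases (28 of 53 higher, 10 lower).

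Genes of late embryogenesis abundant proteins, which protect drying cells and seeds, were higher in 24 of 59 tested cases, 10 at least 2-fold, and lower in 17. The sum of 8 seed markers was higher in the same libraries, but only 1 of them, EM6, reached the level for testing. The part of seed markers in this count was not tested. Tubulin genes, which encode the microtubule subunits, were higher in 9 of 13 tested cases and lower in 3. Germin-like protein genes, found mainly in walls, were higher in 12 of 26 cases and lower in 8. Of 12 tested small nuclear RNA genes, 3 were called higher and 0 lower, and of 54 chloroplast-encoded genes tested 2 were called. Both called shares were below the 63.8% of all tested genes.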
